A study of Mus musculus with 12 samples.

Results

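The histone genes of the mouse were examined for peaks of the acetyltransferase MOF, and for peaks of the transcription factor GATA1, in lists from blood stem and progenitor cells. The members were the protein-coding RefSeq genes of mm10 that carry a histone symbol of the H1, H2A, H2B, H3 or H4 series or an older Hist1, Hist2, Hist3 or Hist4 name. These were 76 of 21887 annotated protein-coding genes (chromosomes 1 to 19 plus X and Y), with 10 H1, 21 H2A, 18 H2B, 14 H3 and 13 H4 genes. Of them, 67 were replication-dependent genes and 9 were variant genes that lie singly. Chromatin immunoprecipitation followed by sequencing had been done on bone marrow cells of C57BL/6 mice, pooled from several bones. Haematopoietic stem cells (HSC, sorted as LSK+CD34-Flt3-, 15000 cells) and megakaryocyte-erythroid progenitors (MEP, lineage-, Sca-1-, cKit+, CD34-, IL7r- and CD16/32-, 30000 cells) came from wild-type animals and from Mof -/+ (heterozygous) animals. The GATA1 list came from wild-type HPC7, a mouse haematopoietic progenitor cell line, at passage 3, grown with stem cell factor (SCF) at 10 ng/mL. Each of the 5 lists is 1 library, so no difference below has a replicate check, and the sources used here give neither the age nor the number of the animals. Peak lists hold no RNA values, so the sorted cell types were not checked against their markers. The other 7 of the 12 samples, which were 6 inputs and an H4K16ac library, were not analysed here.

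Histones are the proteins around which DNA is wound: H3 and H4 form the centre of the nucleosome, H2A and H2B flank it, and H1 binds the DNA between nucleosomes. Replication-dependent histone genes are short, lack introns, lie in clusters and are transcribed in S phase, when newly copied DNA has to be packaged. Their messengers end in a stem-loop in place of a poly(A) tail, and H2A and H2B genes often stand head to head and share a promoter. Variant histone genes are transcribed outside S phase as well and give, among others, H3.3, H2A.Z and H2A.X. MOF, also called KAT8, is the main enzyme that acetylates H4 at the K16 residue, so H4 is its substrate. GATA1 drives the erythroid and megakaryocytic programme.

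The sequences before the starts of 7 genes are shown because these genes carried high-scoring histone peaks of each class, or were found in 3 of the 5 lists. Each is the 250 bases up to the base before a RefSeq start of GRCm38.p6, the assembly of mm10, written 5′ to 3′ along the gene. Capitals mark every match to 4 short motifs, on either strand: the CCAAT box (CCAAT, or ATTGG in reverse), the TATA box (TATAAA or TTTATA), the octamer (ATTTGCAT or ATGCAAAT) and the core of the element described for H4 promoters (GGTCCG or CGGACC). None of these motifs overlapped another in the sequences printed.
H4c3, chr13:23698459-23698708, minus strand: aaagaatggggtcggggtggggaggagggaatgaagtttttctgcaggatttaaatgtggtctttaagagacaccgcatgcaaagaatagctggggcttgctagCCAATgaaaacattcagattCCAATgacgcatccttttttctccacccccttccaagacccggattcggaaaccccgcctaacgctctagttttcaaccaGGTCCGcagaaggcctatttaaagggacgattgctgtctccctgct
H4c18, chr13:21832198-21832447, minus strand: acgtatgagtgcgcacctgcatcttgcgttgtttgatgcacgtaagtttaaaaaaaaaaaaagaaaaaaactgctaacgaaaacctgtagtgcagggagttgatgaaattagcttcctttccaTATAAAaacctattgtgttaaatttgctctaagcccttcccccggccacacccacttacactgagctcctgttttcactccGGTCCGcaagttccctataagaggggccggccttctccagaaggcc
H3c6, chr13:23562386-23562635, minus strand: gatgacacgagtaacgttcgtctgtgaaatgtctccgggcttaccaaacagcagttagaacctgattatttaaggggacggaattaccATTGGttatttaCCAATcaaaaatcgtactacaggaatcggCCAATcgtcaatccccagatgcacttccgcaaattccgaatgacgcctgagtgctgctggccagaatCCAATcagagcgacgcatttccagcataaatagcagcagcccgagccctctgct
H2ac18, chr3:96245247-96245496, plus strand: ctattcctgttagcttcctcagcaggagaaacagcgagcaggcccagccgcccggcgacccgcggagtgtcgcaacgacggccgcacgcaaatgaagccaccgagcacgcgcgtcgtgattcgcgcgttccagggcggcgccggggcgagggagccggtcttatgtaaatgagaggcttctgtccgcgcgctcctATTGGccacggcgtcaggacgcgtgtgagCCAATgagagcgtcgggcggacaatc
H2bc6, chr13:23585971-23586220, minus strand: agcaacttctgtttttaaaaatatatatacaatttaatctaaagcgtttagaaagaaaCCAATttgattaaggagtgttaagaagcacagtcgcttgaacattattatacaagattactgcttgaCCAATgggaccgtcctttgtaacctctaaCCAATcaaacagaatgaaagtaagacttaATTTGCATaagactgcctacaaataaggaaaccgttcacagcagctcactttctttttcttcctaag
H1f2, chr13:23738557-23738806, plus strand: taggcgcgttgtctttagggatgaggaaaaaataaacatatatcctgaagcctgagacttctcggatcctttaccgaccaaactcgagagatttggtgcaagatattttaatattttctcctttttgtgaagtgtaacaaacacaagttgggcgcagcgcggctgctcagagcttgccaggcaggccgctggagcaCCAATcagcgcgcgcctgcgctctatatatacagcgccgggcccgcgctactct
H3f3b, chr11:116024505-116024754, minus strand: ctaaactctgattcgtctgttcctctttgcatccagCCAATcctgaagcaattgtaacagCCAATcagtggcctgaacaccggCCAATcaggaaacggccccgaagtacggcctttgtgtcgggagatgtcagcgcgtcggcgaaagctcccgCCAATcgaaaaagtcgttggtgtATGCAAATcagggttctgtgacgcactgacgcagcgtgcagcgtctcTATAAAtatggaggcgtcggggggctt
The H4 genes H4c3 and H4c18 held GGTCCG 46 bases before the start. H3c6 held 4 CCAAT boxes, 1 of them in reverse, and H2bc6 held 3 CCAAT boxes and an octamer 67 bases before the start. H3f3b, a variant gene, held 4 CCAAT boxes, an octamer in reverse and TATAAA 27 bases before the start. H2bc6 has a second RefSeq start farther upstream, and the start shown is the one at which its peaks lay.

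MOF peaks were frequent at histone genes in both wild-type lists, more so in MEP than in HSC. The other lists were shorter, and of these the Mof -/+ HSC list held histone peaks and the Mof -/+ MEP and GATA1 lists held none. In wild-type MEP, 53 of the 76 genes (69.7%, 95% Wilson interval 58.7 to 78.9%) had a peak summit within 5 kb of the gene's start or end, against 3.40% of all protein-coding genes. In wild-type HSC, 36 of the 76 genes (47.4%, 36.5 to 58.5%) had one, against 8.52% of all protein-coding genes. The order of the cell types was thus the opposite of that over all genes. Both lists held 32 of the 76 histone genes, against 1.52% of all protein-coding genes, 21 histone genes had a peak in MEP alone, 4 in HSC alone and 19 in neither. Because the genes lie close together, 1 peak can count for several of them, so the genes are not independent and these intervals, which cover counting error only, are too narrow. Within 1 kb of a gene start or end, where fewer neighbours are caught, 36 of the 76 genes (47.4%) had a peak in MEP against 2.35% of all genes, and 23 (30.3%) in HSC against 6.15%.

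Counted by peak, 34 of the 865 wild-type MEP peaks on the numbered and sex chromosomes (3.93%, 2.83 to 5.44%) and 24 of the 1860 wild-type HSC peaks (1.29%, 0.869 to 1.91%) came within 5 kb of histone genes. Of these, 26 MEP peaks and 16 HSC peaks lay within reach of more than 1 histone gene, and the most reached 5. The nearest protein-coding gene was a histone gene for 33 of the 34 MEP peaks and 23 of the 24 HSC peaks. The exception in each list was a peak that counted for H3f3b but lay nearer to its neighbour Unk. The scores of the peaks, read as −log10 q-values of the authors' caller, were moderate. In MEP they ran from 2.04 to 15.97 with a median of 6.02, against 5.51 over the whole list, and 20 of the 34 lay above the list's median. In HSC they ran from 1.44 to 11.9 with a median of 4.80, against 5.27, and 10 of the 24 lay above the median. The highest histone peak ranked 115 of 898 in MEP and 113 of 1876 in HSC. No histone peak lay in a region that was found in more than 2 of the 5 lists.

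Among the 5 classes, H4 genes had the highest share with a peak in both cell types. All 13 H4 genes had a peak within 5 kb in at least 1 wild-type list, 12 of them in MEP (92.3%, 66.7 to 98.6%) and 10 in HSC (76.9%, 49.7 to 91.8%). The intervals of the classes overlap widely, so their order is a description of these lists. When every peak was given to its nearest histone gene alone, H4 genes took 12 of the 34 MEP peaks and 10 of the 24 HSC peaks, and 10 and 8 distinct H4 genes received them. The highest-scoring histone peak of each list was at an H4 gene, but H4 peaks did not score highest as a class. Their median in HSC, 4.49, was the lowest of the 5 classes, and the weakest HSC histone peak, 1.44, was also at an H4 gene. In MEP their median of 6.02 lay below those of H1 (7.65) and H3 (6.95) and above those of H2A (5.89) and H2B (4.85). In HSC this was H4c3 with a score of 11.9, whose summit lay 88 bp inside the gene, and the MEP peak at the same gene scored 6.05. In MEP it was H4c17 at 15.97, followed by H4c18 at 13.7, and the HSC peak at H4c18 scored 7.75. H4c9 had a MEP peak of 10.1 and H4c14 had peaks of 5.52 in MEP and 5.41 in HSC. H4f16, an H4 gene that stands alone on chromosome 6, also had a peak in both lists, with 3.79 in MEP and 4.30 in HSC.

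**Figure D1:**
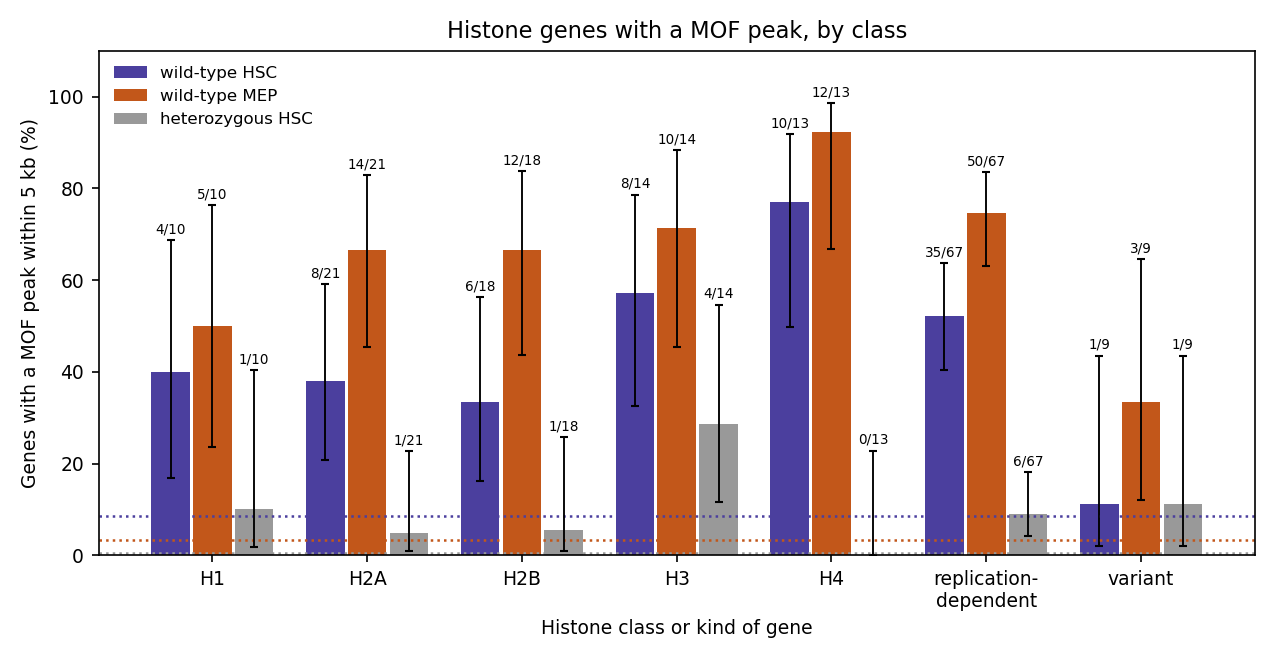
Share of the histone genes of each class, and of replication-dependent and variant genes, with a MOF peak within 5 kb of the gene start or end (vertical axis, percent). Bars are the wild-type HSC, wild-type MEP and heterozygous HSC lists, 1 library each, error bars are 95% Wilson intervals for counting error, numbers above are genes with a peak over all genes, and dotted lines in the same colours are the shares over all protein-coding genes (8.52, 3.40 and 0.567%). H4 genes stand highest in both wild-type lists, at 10 and 12 of 13, and variant genes lowest, at 1 and 3 of 9. The H1, H2A and H3 bars include variant genes, and 1 peak can count for several clustered genes.

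H3 genes, whose products pair with H4, had a peak in 10 of 14 cases in MEP and 8 of 14 in HSC. In percentage points this class lost most with the narrower window, down to 5 of 14 in MEP and 3 of 14 in HSC within 1 kb. Several of the H3 genes lost were reached only by a peak at a neighbour. The longer variant genes H3f3b, in both lists, and H3f3a, in MEP, had a peak inside the gene but more than 1 kb from its annotated ends. Of the replication-dependent H3 genes, H3c6 had the highest HSC score, 8.68 with the summit 111 bp past the start, and no MEP peak within 5 kb. H3c11 had a MEP peak of 9.40, 65 bp before the start, and none in HSC. H3c14 had peaks of 5.70 in HSC and 6.95 in MEP, but on different sides of its start, 308 bp after and 206 bp before it.

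H2A and H2B genes, which encode the partners of the outer dimers, showed the widest gap between the cell types in the share of genes with a peak. In MEP, 14 of 21 H2A and 12 of 18 H2B genes (66.7% of each) had a peak, against 8 (38.1%) and 6 (33.3%) in HSC. Part of this gap came from peaks nearer to other genes. With every peak given to its nearest histone gene alone, H2A genes took 8 MEP and 4 HSC peaks. H2B genes took 5 and 4, and H3 genes 7 and 4. Of the 21 genes with a peak in MEP alone, 6 were H2A and 7 were H2B genes, classes that made up 21 and 18 of the 76 histone genes. H2ac18 had peaks of 10.9 in MEP and 8.46 in HSC, and H2ac19 had 11.5 and 3.45. H2ac6 and H2bc6 had scores of 8.24 and 8.51 in HSC and 5.39 and 6.79 in MEP. H2ac15 had a peak of 7.39 in MEP and none within 5 kb in HSC. Among genes with a start in the promoter table, 10 pairs of an H2A and an H2B gene stood head to head with 164 to 281 bp between their starts. A peak lay between the starts or within 500 bp past either of them in 6 of these 10 pairs in MEP and in 2 of the 10 in HSC, and both of the HSC pairs were among the 6. The 6 include H2bc23 with H2ac23 and H2ac24 with H4bc24, which are near copies of each other, so the placement of their peaks is uncertain. H2ac24 with H4bc24 was also 1 of the 2 HSC pairs. Of the 6 MEP summits, 2 lay between the starts, 3 on the H2A side and 1 on the H2B side. H2ac6 with H2bc4 and H2ac20 with H2bc21 also adjoin but were not among the pairs counted, which needed a start for both genes. H2ac6 and H2bc4 had a peak near their facing ends in both wild-type lists, and H2ac20 and H2bc21 in neither.

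Of the 10 genes for linker histone H1, 5 had a peak in MEP and 4 in HSC. All of these were among the 6 replication-dependent H1 genes, a share of 83.3% in MEP and 66.7% in HSC. H1f2 had its own peak in both, with summits 1 bp apart, 118 and 119 bp past the start, and scores of 10.8 in MEP and 5.78 in HSC. H1f3 had its own peak in both lists too, 131 bp past the start in HSC (3.86) and 124 bp past the end in MEP (4.51). H1f1 and the testis gene H1f6 counted in both lists, and H1f5 in MEP, only through peaks that lay more than 1 kb away and nearer to an H4 or H3 gene. The nearest peak was 1146 bp from H1f6 and 1320 bp from H1f1. The replication-dependent H1f4 and the singly lying H1f0, H1f7, H1f8 and H1f10 had no peak within 5 kb in any list. H1f7 and H1f8 are germ-line genes, as are H1f6, H2ac1 and H2bc1, and of these 5 genes none had a peak within 1 kb in any list.

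Replication-dependent genes had peaks more often than variant genes in both wild-type lists. The counts were 50 of 67 (74.6%, 63.1 to 83.5%) against 3 of 9 (33.3%, 12.1 to 64.6%) in MEP, and 35 of 67 (52.2%, 40.5 to 63.8%) against 1 of 9 (11.1%, 1.99 to 43.5%) in HSC. With 9 variant genes the intervals are wide, and those of the groups overlap in both lists. The shares are also not like for like. Replication-dependent genes lie mostly in clusters, where 1 peak can count for several genes, whereas variant genes lie singly. In MEP the 50 replication-dependent genes were reached by 30 peaks and the 3 variant genes by 4. In HSC the 35 were reached by 22 peaks and the 1 variant gene by 2. H3f3b, 1 of the pair of genes for H3.3, had a MEP peak of 10.4, 56 bp before a RefSeq start, and an HSC peak of 4.93, 78 bp after it. H3f3a, which encodes the same protein, had a MEP peak of 5.49 and none in HSC. H2ax, for the variant that is phosphorylated at DNA breaks, had a MEP peak of 4.41 and none in HSC. H2az1 and H2az2, the genes for H2A.Z, had no peak within 5 kb in any list.

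The genes fell into 4 clusters and 10 single genes. On chromosome 13 a first block of 23 genes spans 328 kb (mm10 chr13:21715711-22043658) and a second block of 31 genes spans 404 kb (chr13:23531044-23934913). On chromosome 3, 10 genes lie within 50.3 kb (chr3:96219885-96270192), and on chromosome 11 the pair H2bu2 and H2aw lies within 6.28 kb (chr11:58948911-58955192). The cell types differed most in the first block of chromosome 13. There, 18 of 23 genes (78.3%, 58.1 to 90.3%) had a peak in MEP and 6 of 23 (26.1%, 12.6 to 46.5%) in HSC, from 9 MEP and 4 HSC peaks. Only 3 of the 23 genes were found in both lists, 15 in MEP alone, 3 in HSC alone and 2 in neither. This block holds near copies whose peaks are of uncertain placement. H2ac23, H2bc23 and H4c17, found in MEP alone, are near copies of H2ac24, H4bc24 and H4c18, found in both lists. In the second block, 25 of 31 genes had a peak in MEP and 22 of 31 in HSC, and 21 had one in both. On chromosome 3 the same 5 of 10 genes had a peak in both lists, from 4 peaks each. On chromosome 11 only H2aw had a peak, in both lists, at 4.04 in MEP and 3.84 in HSC. The histone blocks of chromosome 13 also hold other protein-coding genes, 3 in the first and 6 in the second. Of these 9, only Hfe, an iron regulator in the second block, had a peak within 5 kb, in both wild-type lists, and every peak of that block in these lists also lay near a histone gene.

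**Figure D2:**
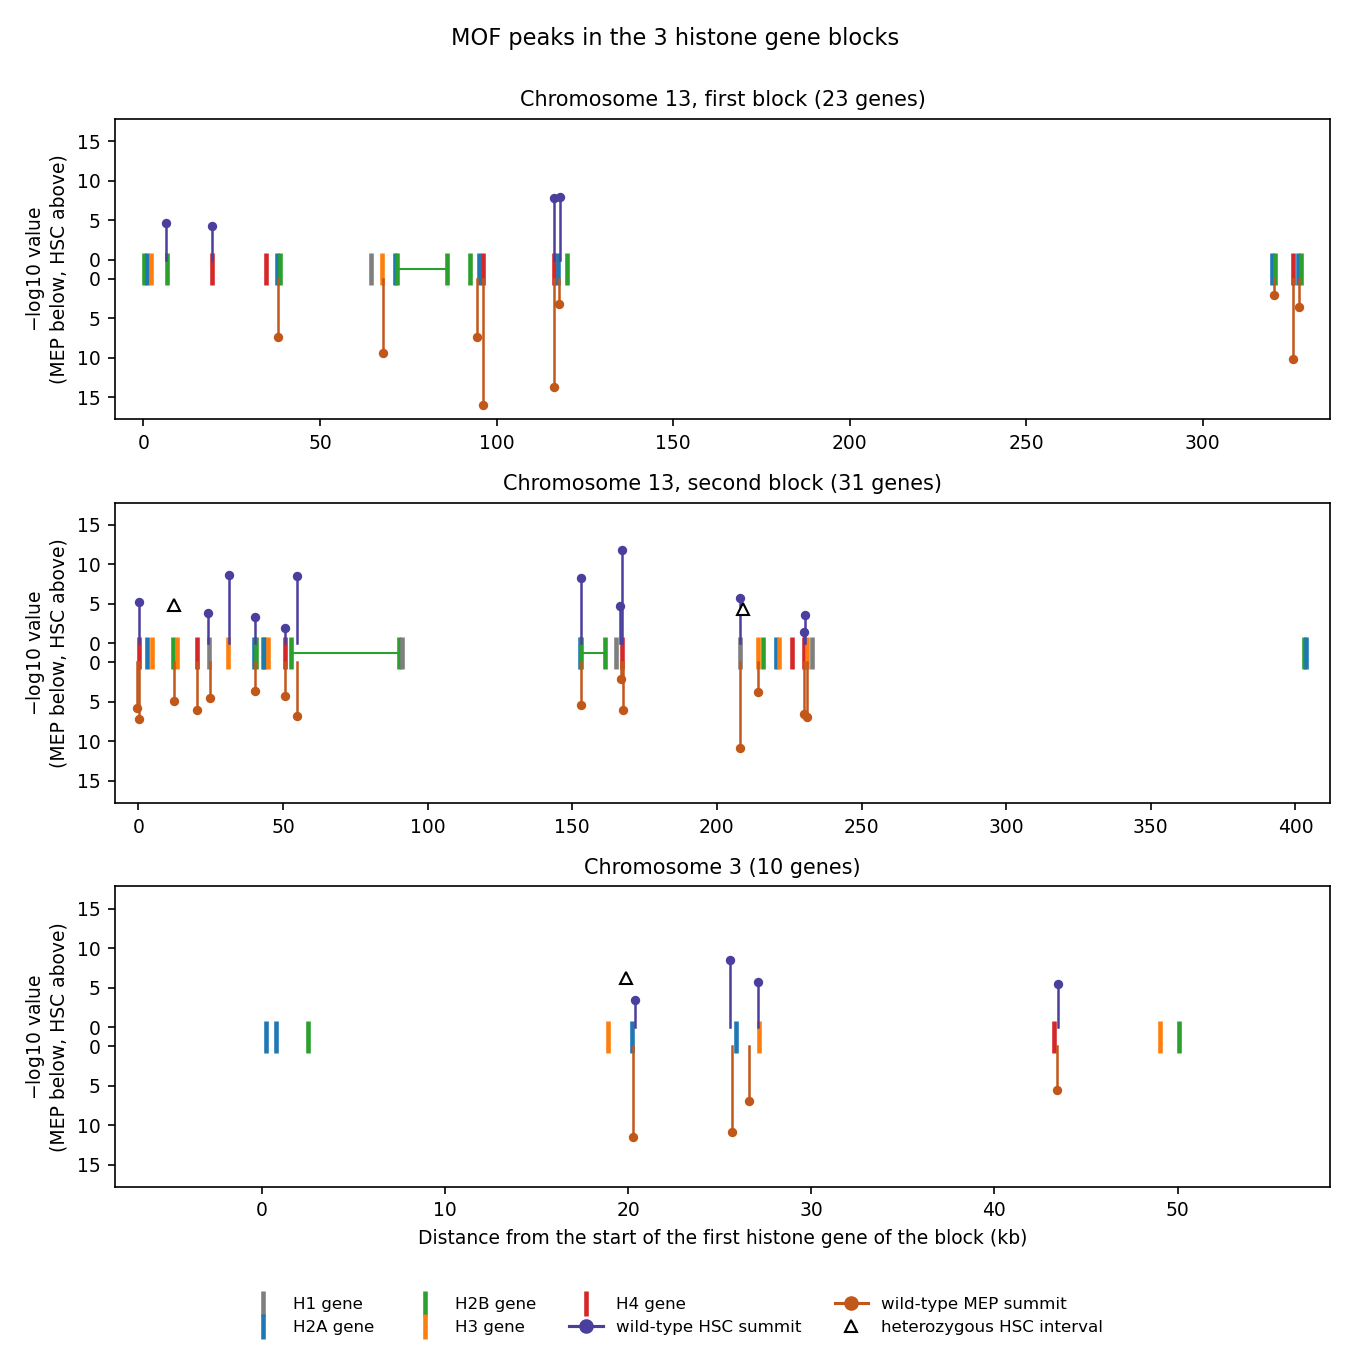
MOF peaks in the 3 large histone gene blocks, as distance in kb from the start of the first histone gene of each block. Ticks are genes coloured by class (genes longer than 5 kb have a tick at each end and a line between), stems above and below are the wild-type HSC and MEP summits within 5 kb of a histone gene with their −log10 value, and triangles are heterozygous HSC intervals at their own −log10 q. In the first block MEP has 9 stems and HSC has 4, whereas on chromosome 3 both have 4.

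Some members are near copies of each other, which bears on where a peak is placed. Before their starts, H4c17 and H4c18 were identical over 249 bases, H2bc23 and H4bc24 over 250 and H2ac23 and H2ac24 over 150, and H3c14 and H3c15 differed at 1 of 235 bases. H2ac18 and H2ac19 were 94.8% identical over 210 bases and H4c11 and H4c12 were 95.8% identical over 236. The sources used here do not say how reads that map to both copies were treated, so the assignment of a peak to 1 of 2 copies is uncertain. In MEP both H4c17 (15.97) and H4c18 (13.7) had a peak, whereas in HSC H4c18 (7.75) had one and H4c17 did not. When the 8 genes at least 99% identical to another before their starts were left out, 45 genes with a peak remained in MEP and 31 in HSC. The sequences inside the genes, where most summits lay, were not compared, so this does not remove every gene with uncertain placement.

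Most summits at histone genes lay just inside the gene. Of the 24 HSC peaks, 22 lay within 1 kb of a RefSeq start, at a median of 88.5 bp downstream of it (interquartile range 30.3 to 131 bp), and 19 of the 22 were downstream. Of the 34 MEP peaks, 29 lay within 1 kb of a start, at a median of 93 bp downstream (interquartile range -49 to 154 bp), and 21 of the 29 were downstream. For peaks elsewhere that lay within 1 kb of a start, the median was -30 bp in HSC (1021 peaks, 430 downstream) and -76 bp in MEP (327 peaks, 107 downstream), that is, upstream of the start. The medians were -32 and -76.5 bp when these were limited to peaks within 5 kb of a protein-coding gene start or end, the reach by which the histone peaks had been chosen. Of that set, 74.4% of 1318 HSC peaks and 66.9% of 481 MEP peaks lay within 1 kb of a start, and of the histone peaks 91.7% and 85.3%, which was not tested. The sets were not matched for gene length. In a short gene a peak near the end is also near the start, so these shares are not like for like. In all, 18 of the 24 HSC and 25 of the 34 MEP summits lay between the annotated start and end of a histone gene. Most of these genes are short, so a position inside the gene is also a position near its start. This does not hold for H3f3a, H3f3b and H2bc6, which are longer. The MEP summits inside H3f3b and H2bc6 lay 56 and 54 bp before the RefSeq start used. The MEP summit inside H3f3a had no histone start within 1 kb. Start positions came from a promoter table that holds 70 of the 76 histone genes, and the genes without an entry there were H2ax, H2bc21, H2bc4, H3c1, H3c7 and H4c14. The limit of 5 kb cut the HSC list between H3c8, at 4285 bp from its nearest peak, and H3c13, at 5302 bp. It cut the MEP list between H3c4 at 4264 bp and H3c13 at 5347 bp.

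**Figure D3:**
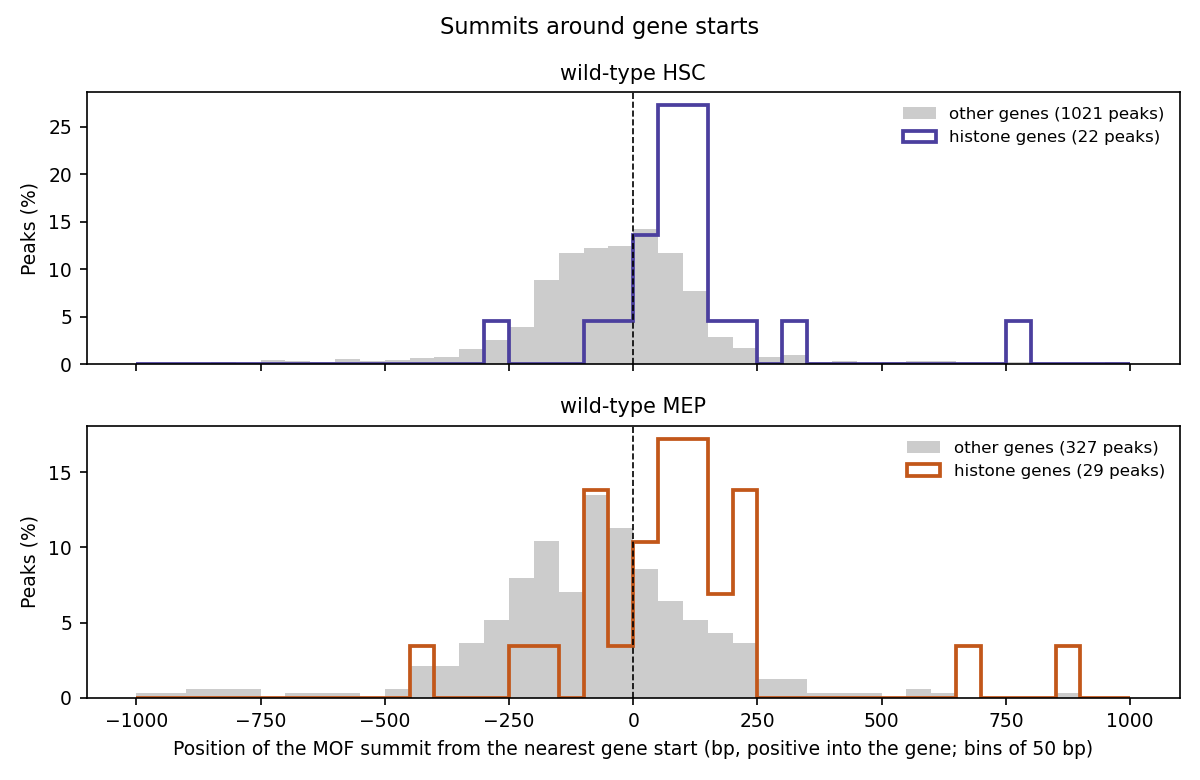
Position of wild-type MOF summits relative to the nearest RefSeq gene start (horizontal axis, bp, positive into the gene), as percent of peaks per bin of 50 bp. Lines are peaks within 5 kb of a histone gene (22 in HSC, 29 in MEP) and grey bars are all other peaks within 1 kb of a start (1021 and 327). The histone summits lie mostly right of 0, with medians of 88.5 and 93 bp, and the others centre left of it, at -30 and -76 bp.

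The histone peaks of HSC recurred in MEP. Extended by 150 bp on each side, 18 of the 24 HSC histone peaks (75%, 55.1 to 88.0%) overlapped a MEP peak by at least 1 bp, against 14.4% of all HSC peaks. The same 18 made up 52.9% (36.7 to 68.6%) of the 34 MEP histone peaks, against 30.9% of all MEP peaks. The summits of a pair lay between 1 and 299 bp apart, with a median of 77 bp. The scores of the lists are not on a common scale, so the rank is given beside them, as a percent of the list with the highest score near 0. H4c3 stood at 6.02% in HSC and 45.0% in MEP. H2ac19 stood at 79.2% in HSC and 16.7% in MEP, and H4c1 at 99.3% and 39.0%. H2ac18 had nearly the same standing in both, 18.2% and 17.8%. Of the 18 pairs, 9 stood higher in MEP and 9 in HSC by this rank, whereas the score itself was higher in MEP for 12 and in HSC for 6. Standing depends on how far down each list was called (1876 and 898 peaks), so neither count gives a direction between the cell types.

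**Figure D4:**
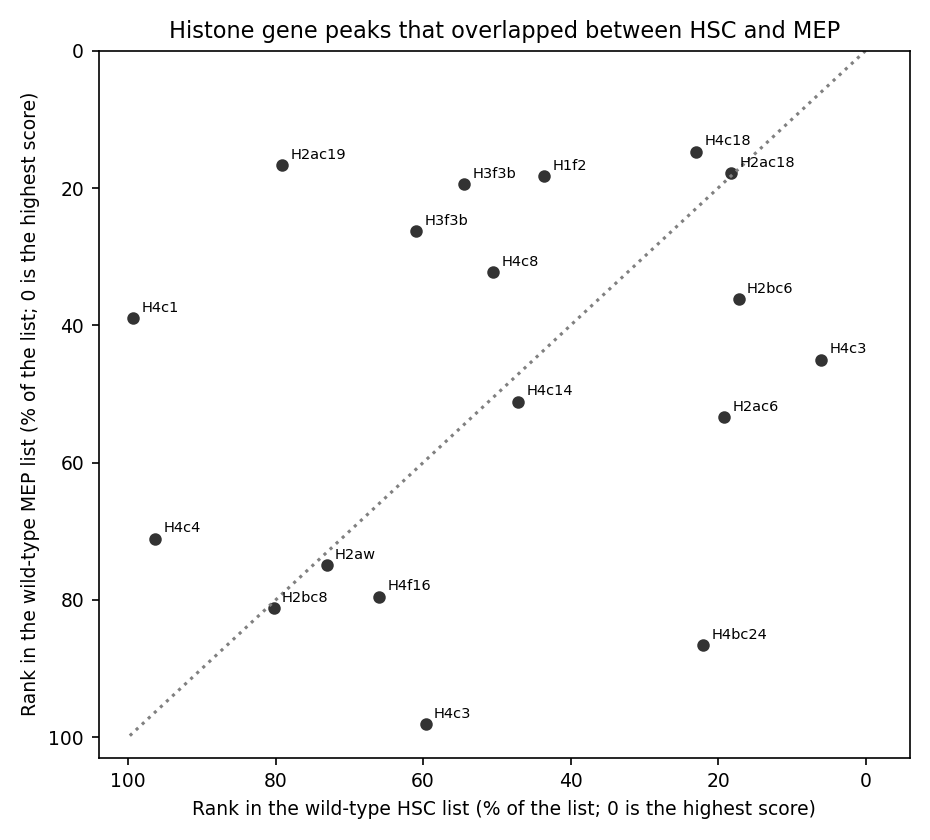
Rank of the 18 overlapping histone gene peaks in the wild-type HSC list (horizontal) and the wild-type MEP list (vertical), each as percent of its list with the highest score at 0, named by the nearest histone gene. The dotted line marks equal standing, and 9 points lie on each side of it, from H4c3 (6.02% in HSC) to H2ac19 (16.7% in MEP).

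In Mof -/+ HSC, 4 intervals reached 7 histone genes (9.21%, 4.53 to 17.8%), against 0.567% of all protein-coding genes. The 4 were 1.37% (0.532 to 3.46%) of the 293 peaks of that list on the numbered and sex chromosomes, close to the 1.29% in wild-type HSC. An interval at H3f3b, centred 563 bp past the start, had a −log10 q of 2.92 and a fold enrichment of 4.99. An interval at the start of H2bc9, which also reached H3c7, had 4.88 and 5.32. Another, past the end of H1f2 by 619 bp and also counted for H3c3, had 4.33 and 5.38. The last, at the end of H2ac19 and near H3c15, had 6.22 and 6.14. All 4 lay in the lower part of their list, at ranks 209 to 310 of 338. None of them overlapped a wild-type HSC peak, against 26.6% of all peaks of that list, although H3f3b, H1f2, H2ac19 and H3c15 had peaks in both HSC lists and in wild-type MEP, and were the only members found in 3 lists. The interval at H2bc9 overlapped the wild-type MEP peak there, and was the only 1 of the 4 to overlap that list, against 36.5% of all peaks. With 4 intervals, neither count can be told from the share over the whole list. No H4 gene had a peak in the Mof -/+ HSC list (0 of 13, Wilson interval up to 22.8%), which cannot be told from the 9.21% over all histone genes. In Mof -/+ MEP, none of the 61 peaks came within 5 kb of a histone gene, which allows a share of up to 4.92% of the peaks. By gene this was 0 of 76 (Wilson interval up to 4.81%), and 0.0366% of all protein-coding genes had a peak in that list. The wild-type lists held 1876 HSC and 898 MEP peaks in all and the Mof -/+ lists 338 and 64, and the depth of the libraries is unknown. Genotype, list length and layout of the file cannot be told apart here, and the absence of a histone peak from a short list does not show that MOF was absent.

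The GATA1 list of HPC7 held no peak near a histone gene. By peak this was 0 of 466, which allows a share of up to 0.644% of the peaks. By gene it was 0 of 76 (Wilson interval up to 4.81%), while 0.603% of all protein-coding genes had a GATA1 peak within 5 kb. A count of 0 of 76 genes is near that background. The letters AGATAA, the core of the GATA motif, or TTATCT in reverse, were found in the 250 bases before 11 of 71 histone starts (15.5%) and of 8.81% of all protein-coding starts. The stretches before head-to-head H2A and H2B starts overlap, so the same match can count for both genes of a pair.

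The promoters of the classes differed in their motifs. Over the 71 starts of the 70 histone genes in the table, CCAAT or ATTGG was found in 80.3%, against 35.4% of the 21263 starts of 17492 protein-coding genes. TATAAA or its reverse was found in 42.3% against 11.6%, the octamer in 21.1% against 1.58% and GGTCCG or its reverse in 16.9% against 8.41%. Every replication-dependent H1, H2A and H2B start had a CCAAT box (6, 18 and 17 starts), whereas 3 of 12 replication-dependent H4 starts did. GGTCCG stood before 9 of the 12 H4 starts, 1 of 17 H2B starts and none of the 18 H2A or 6 H1 starts. The octamer stood before 7 of 17 H2B and 7 of 18 H2A starts and before none of the replication-dependent H3 and H4 starts. The H2A and H2B counts are not independent. In the 10 head-to-head pairs, with 164 to 281 bp between the starts, the stretches searched before both starts overlap. Matches on either strand were counted, so the same motif can count for both genes of a pair. The other motif counts that include these starts share this limit. Of the replication-dependent starts, 51 belonged to genes with a wild-type MOF peak and 12 to genes without. GGTCCG was found in 11 of the 51 and none of the 12, and CCAAT in 40 of the 51 and all of the 12. TATAAA was found in 21 of the 51 and 8 of the 12, the octamer in 9 and 5, and AGATAA in 7 and 4. The genes without a peak included no H4 gene.

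Genes that act on histone genes, their messengers or their proteins were counted in the same way, to be read against the shares over all protein-coding genes, which were 8.52% in wild-type HSC, 3.40% in wild-type MEP and 0.567% in Mof -/+ HSC. Of 12 genes for transcription of histone genes, Nfya and Yy1 had a peak in wild-type HSC (2.18 and 5.92) and Pou2f1 in wild-type MEP (4.51). Nfya encodes a subunit of the factor that binds the CCAAT box, and Pou2f1 the factor that binds the octamer. Of 10 genes for histone messenger processing, Cstf2, Lsm11 and Sympk had a peak in wild-type HSC and none had one in wild-type MEP. Sympk, a scaffold of the cleavage complex, had the highest score of these at 14.6. Slbp, for the protein that binds the stem-loop, had an interval in Mof -/+ HSC alone (3.84). Of 17 histone chaperone genes, Asf1a, Chaf1a, Daxx, Hjurp and Spty2d1 had a peak in wild-type HSC, Daxx and Spty2d1 in wild-type MEP and Hjurp in Mof -/+ HSC. The Daxx peak lay nearer to Zbtb22 in both lists. In these lists, as over all protein-coding genes, more genes had a peak in wild-type HSC than in wild-type MEP. None of the 3 lists had a gene with a peak in Mof -/+ MEP or in the GATA1 list, where 0.0366% and 0.603% of all protein-coding genes had one. With 10 to 17 genes in a list, a count of 0 says little at these shares.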

How the data were processed

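The 5 deposited peak lists, 1 library each, were used. Bowtie2 2.3.0.1, deepTools and MACS2 with build mm10 are named per the submitters' processing notes, and neither their settings nor the duplicate filter nor the input behind each list is given in the sources used here. The deposited wild-type MOF lists give a summit of 1 bp and a value without a header, which was read as a −log10 q-value because its minimum lay just above 1.3 (q of 0.05) in each. The deposited Mof -/+ lists give intervals with the authors' −log10 p and q values, fold enrichment and an integer score, and the deposited GATA1 list gives intervals only. Read depth is unknown. All values are the authors' and were used within their own list.

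Python 3.11.15, pandas 2.3.3 and matplotlib 3.10.9 were used. A gene was counted if a summit or interval midpoint lay within 5 kb of its RefSeq start or end (GRCm38.p6). Replication-dependent genes were those of the clusters, with gaps of at most 500 kb, and Hist4h4. Wild-type summits were extended by 150 bp on each side for overlaps. The counting was tested on simulated data with planted peaks. Intervals are 95% Wilson intervals, and a count of 0 allows 3 peaks of the total. No test was possible with 1 library per group, so no p-value is given. Members, gene lists and choices were made with earlier results of these data known. Genes named were those with a peak in a Mof -/+ or the GATA1 list, those at the 10 highest-scoring histone peaks of each wild-type list, every H1 and variant gene and those in at least 3 lists. H4c1, H4f16, H2aw and the genes described as copies, as neighbours or at the window's limit were named after their values were seen. Promoter sequences are from RefSeq, and comparisons of starts cover the chromosomes with entries.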

Additional observations from a re-analysis of the deposited data

How the results depend on the processing

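Of 110 recomputed counts, 89 stayed within 1.5 times the reported one. These include the counts of 0 in the Mof -/+ MEP and GATA1 lists, which stayed at 0 throughout. Leaving out regions found in 4 or 5 lists could not change a count, since no histone peak lay in one. The figure of 89 therefore overstates how stable the counts were. Wild-type MEP had more histone genes than wild-type HSC under all 9 alternatives run for genes, that removal among them. It also had more histone peaks under all 7 run for peaks. Requiring a score above the list's median left 14 histone genes and 10 peaks in wild-type HSC, 20 peaks in wild-type MEP and 0 genes and 0 peaks in Mof -/+ HSC. Shared between wild-type HSC and MEP were then 6 of the 10 HSC and 6 of the 20 MEP peaks. The 1 overlap of a MEP peak with Mof -/+ HSC was lost (0). A window of 1 kb left 23 genes in wild-type HSC. A window of 20 kb gave 22 genes in Mof -/+ HSC and narrowed the lead of MEP over HSC from 17 to 9 genes. With alternatives chosen after seeing the data, giving each peak to its nearest gene alone left 21 genes in HSC, 31 in MEP (a lead of 10) and 4 in Mof -/+ HSC, and requiring a RefSeq start within 1 kb left 22, 33 (a lead of 11) and 4. Extending summits by 500 bp gave 2 wild-type HSC and 2 wild-type MEP histone peaks that overlapped Mof -/+ HSC intervals. With 50 bp, 12 of the 24 HSC and 12 of the 34 MEP histone peaks were shared between these lists. These shifts follow from how each alternative is built, with fewer peaks or a wider or narrower reach. No GATA1 peaks above a median were counted, since that list has no score. No paired analysis was possible because each group has 1 library and no result comes from a test.

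Limits: depth and caller settings set how many peaks a list holds, and both are unknown. Neighbouring genes share peaks, and the placement of peaks at near copies is uncertain. A gene without a listed peak was not detectable at this depth and threshold, which does not show that MOF was absent from it.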

Other observations

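The first histone block of chromosome 13 also holds transfer RNA genes. Of the 11 wild-type MEP peaks in this block, 9 lay near histone genes and the other 2 lay at transfer RNA genes: 1 at 110 bp from the methionine gene n-TMcat8 (score 3.85) and 1 inside the valine gene n-TVaac3 (4.85). The 4 wild-type HSC peaks of the block all lay near histone genes. Among histone genes outside the symbols counted here, 7 of 11 listed could be matched. Cenpa, for the histone of the centromere, had a wild-type HSC peak of 2.18, 138 bp from the gene's start or end. H2aj counted in both wild-type lists through the peak at its neighbour H4f16, 4064 bp away in HSC and 4058 bp in MEP.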
